A study of Homo sapiens with 12 samples.

Results

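The enzymes that remove the m7G cap from RNA, their activators and the nucleases that follow them were examined in U2OS cells that carried eIF4E-Flag, across total RNA and RNA selected by its cap. The group comprised DCP2, DCP1A, DCP1B, EDC3, EDC4, PATL1, EIF4ENIF1, DCPS, XRN1 and XRN2. They were taken by symbol, and all 10 were found among the 58684 genes of the deposited count table. With the main scaling of the libraries, EDC3, EDC4, PATL1 and EIF4ENIF1 passed the test as lower in the Cap IP than in input. They did so in both kinds of cell, PATL1 only near the threshold in eIF4E cells. Of all tested genes 23.3% were lower in this way in eIF4E cells and 21.0% in vector cells. With mitochondrial mRNAs as library sizes no gene of the group passed. No tested gene of the group passed the test between eIF4E and vector cells. On simulated data that test called only 10% of 2-fold changes in input and 4% in Cap IP.

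The cap at the start of an mRNA is bound by eIF4E for translation and is cut off by DCP2 when the mRNA is taken out of use. DCP1A and DCP1B are alternative activating partners of DCP2. EDC3, EDC4 and PATL1 bring the decapping proteins together, often in cytoplasmic P-bodies. XRN1 then degrades the uncapped RNA from its 5′ end in the cytoplasm, and XRN2 does the same in the nucleus, where it also takes part in ending transcription. DCPS clears the cap remnant that is left when an mRNA is degraded from its other end. EIF4ENIF1, also called 4E-T, binds eIF4E itself, carries it between cytoplasm and nucleus, and joins it to repressed mRNAs.

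U2OS is a human osteosarcoma line. The 12 libraries formed 4 groups of 3, namely Cap IP of cells with eIF4E-Flag, Cap IP of cells with the vector, input of cells with eIF4E-Flag, and input of cells with the vector. The Cap IP is an immunoprecipitation of RNA by its cap, and input is the total RNA from which ribosomal RNA was depleted during library preparation. The cells are described as stable lines. The labels name neither the promoter of eIF4E-Flag nor whether a line is a clone or a pool. Whether the 3 libraries of a group come from separate cultures is not stated either. All p-values here therefore refer to the spread between libraries, which may be technical. The libraries held 1206321 to 1813486 counts.

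The test was edgeR's quasi-likelihood test with Benjamini-Hochberg adjustment over all 12460 genes that had enough counts, and genes with an adjusted p under 0.05 are named as called. CPM is the count scaled to library size with TMM factors. EIF4E averaged 13.5 ± 1.76 CPM in eIF4E input and 6.94 ± 2.5 CPM in vector input (SD, n = 3 each), a log2 fold change of 0.98 ± 0.36 (SE) that was not called (edgeR adjusted p = 0.231). Of 12 mesenchymal and bone markers, 8 averaged at least 10 counts and IBSP was at 0. Of 6 epithelial markers, 4 averaged at least 10 counts, and the summed level of the 6 was 2465 to 4004 CPM in eIF4E input and 1378 to 2263 CPM in vector input, which did not overlap. KRT8 and KRT18, keratins of simple epithelia, made up nearly all of it, at 2351 and 651 CPM on average in eIF4E input and 1345 and 360 CPM in vector input. CDH1 (7.37 and 6.20 CPM), CLDN4 (15.1 and 14.9 CPM) and EPCAM (1.59 and 1.06 CPM) overlapped between eIF4E and vector input, and KRT5 was lower in all eIF4E input libraries (3.68 and 6.52 CPM). The part of these differences in the results was not tested. Uncapped RNAs made by RNA polymerase III were taken as a measure of the background of the Cap IP. The background of other RNAs was not measured. Of the 4 followed, RPPH1 fell least, to 13.2 CPM in eIF4E Cap IP from 2194 CPM in eIF4E input. In vector cells it averaged 21.4 CPM in Cap IP and 2430 CPM in input. RN7SL1 fell most in both kinds of cell. RN7SL1, an RNA of the protein-targeting machinery, averaged 3.93 CPM in eIF4E Cap IP and 1730 CPM in eIF4E input, and 3.50 CPM in vector Cap IP and 2301 CPM in vector input.

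The counting does not settle from which strand a count came. The library kit keeps the strand, but how the strand was used in counting is not stated in the labels or processing notes. Of 370 pairs of a gene and its antisense-named row with at least 10 counts on average, 227 (61.4%) had more counts in the antisense row. Per kilobase of exon 262 pairs did so. The gap was large in some pairs and went both ways. VIM averaged 1289 counts and its antisense row 17369, whereas ENO1 averaged 1166 and its antisense row 19.9. Exons on the opposite strand overlapped 701 bases of EDC3 (13.8% of its exon length, the kinase gene CLK3) and 529 bases of EIF4ENIF1 (8.67%, the gene SFI1 and an unnamed long noncoding RNA). They covered 4.20% of the exon bases of XRN2, 2.82% of DCPS, 1.48% of PATL1 and 0.791% of DCP2 (the gene MCC). DCP1A, DCP1B, EDC4 and XRN1 had no opposite-strand exons. The open strand setting bears on the counts of every gene of the group, also of those without such exons. EDC4 shared 1307 bases of exon with an unnamed noncoding gene on its own strand.

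The 4 genes that were lower in the Cap IP lie on 4 different chromosomes (GRCh38, GENCODE release 44). EDC3 spans bases 74630558 to 74696292 of chromosome 15 on the minus strand. EDC4 spans 67873052 to 67884499 of chromosome 16 on the plus strand. PATL1 spans 59636716 to 59669037 of chromosome 11 and EIF4ENIF1 31436977 to 31496108 of chromosome 22, both on the minus strand. For these 4 genes, the sequence just before the annotated start (RefSeq, GRCh38.p14) is shown, 5′ to 3′ on the strand of the gene. The part of these sequences in the Cap IP result was not tested. Only the longest run outside any annotated exon within the 100 bases before the start is given. Capitals mark GGGCGG or its reverse complement CCGCCC, the GC box bound by Sp1.

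EDC3: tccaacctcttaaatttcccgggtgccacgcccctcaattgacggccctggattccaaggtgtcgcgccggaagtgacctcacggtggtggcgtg
EDC4: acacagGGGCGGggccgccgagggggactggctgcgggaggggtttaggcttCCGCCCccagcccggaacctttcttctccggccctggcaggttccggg
PATL1: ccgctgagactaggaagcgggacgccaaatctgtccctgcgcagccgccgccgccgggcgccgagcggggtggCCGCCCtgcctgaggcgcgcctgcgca
EIF4ENIF1: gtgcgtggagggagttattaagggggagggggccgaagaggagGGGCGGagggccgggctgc

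These runs lie at chr15:74696030-74696124, chr16:67872952-67873051, chr11:59669038-59669137 and chr22:31489843-31489904. The runs of EDC3 and EIF4ENIF1 lie inside the GENCODE spans given above, since RefSeq starts these genes further downstream. In the whole 100 bases, GGGCGG was found 2 times in EDC4, 1 time in PATL1, 1 time in EIF4ENIF1 and 0 times in EDC3, searching both strands. It was found in 31.3% of all 27305 RefSeq promoters over the same 100 bases. CCAAT (18.7% of promoters) and TATAAA (5.34%), also searched on both strands, were not among the letters of these 4 windows. Of the other genes of the group, DCP1A, DCPS, XRN1 and DCP2 also held GGGCGG.

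Levels between genes were compared per kilobase of exon, from counts whose strand is not settled. XRN2 was the highest of the 10 genes in every group, with 11.6 ± 0.62 CPM per kb in eIF4E Cap IP, 9.91 ± 0.50 in vector Cap IP, 8.66 ± 2.79 in eIF4E input and 7.91 ± 1.67 in vector input (SD, n = 3 each). XRN1 was the lowest in every group, between 0.0720 CPM per kb in eIF4E input and 0.168 in eIF4E Cap IP. DCP2 came next to last in every group, from 0.172 CPM per kb in eIF4E Cap IP to 0.618 in vector Cap IP. In eIF4E input the order after XRN2 was EDC4 (5.76 ± 0.03), PATL1 (5.51 ± 1.39), EDC3 (4.63 ± 1.06) and EIF4ENIF1 (4.44 ± 0.26). Neighbours among these 4 overlapped in the range of their libraries, and XRN2 lay wholly above EDC4. DCP1B (2.71 ± 0.63), DCP1A (1.82 ± 1.06) and DCPS (1.42 ± 0.48) followed, wholly below EIF4ENIF1 and each overlapping with its neighbour of these 3. In vector input EIF4ENIF1 was the second with 7.03 ± 1.5 CPM per kb. Per kilobase of coding sequence XRN1 was again the lowest in every group, but EDC3 came first in eIF4E input (15.5 ± 3.54 CPM per kb), EIF4ENIF1 in vector input (14.5 ± 3.09) and DCPS in vector Cap IP (15.6 ± 3.62). On that scale DCP2 ranked 3 of the 10 genes in vector Cap IP (5.57 ± 2.29) and stayed next to last in the other groups.

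XRN1 and DCP2 had too few counts to be tested, in counts whose strand is not settled. XRN1, the cytoplasmic 5′ exonuclease, had 3, 1 and 2 counts in eIF4E Cap IP, 1, 1 and 2 in vector Cap IP, 4, 1 and 1 in eIF4E input, and 3, 2 and 6 in vector input. DCP2, the decapping enzyme, had 0, 3 and 3 counts in eIF4E Cap IP, 8, 9 and 6 in vector Cap IP, 17, 3 and 8 in eIF4E input, and 6, 9 and 15 in vector input. Without TMM factors, 3 counts amount to 1.65 to 2.49 CPM in these libraries. With them, 3 counts were 1.47 CPM for DCP2 in eIF4E input replicate 2 and 3.08 CPM for XRN1 in eIF4E Cap IP replicate 1. Most XRN1 values lie at or under 3 counts, so differences of XRN1 were not detectable at this depth. For DCP2 the eIF4E Cap IP and vector Cap IP libraries did not overlap. Without the filter on low counts, this difference had an edgeR adjusted p of 0.696, and 0.0245 unadjusted.

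**Figure D1:**
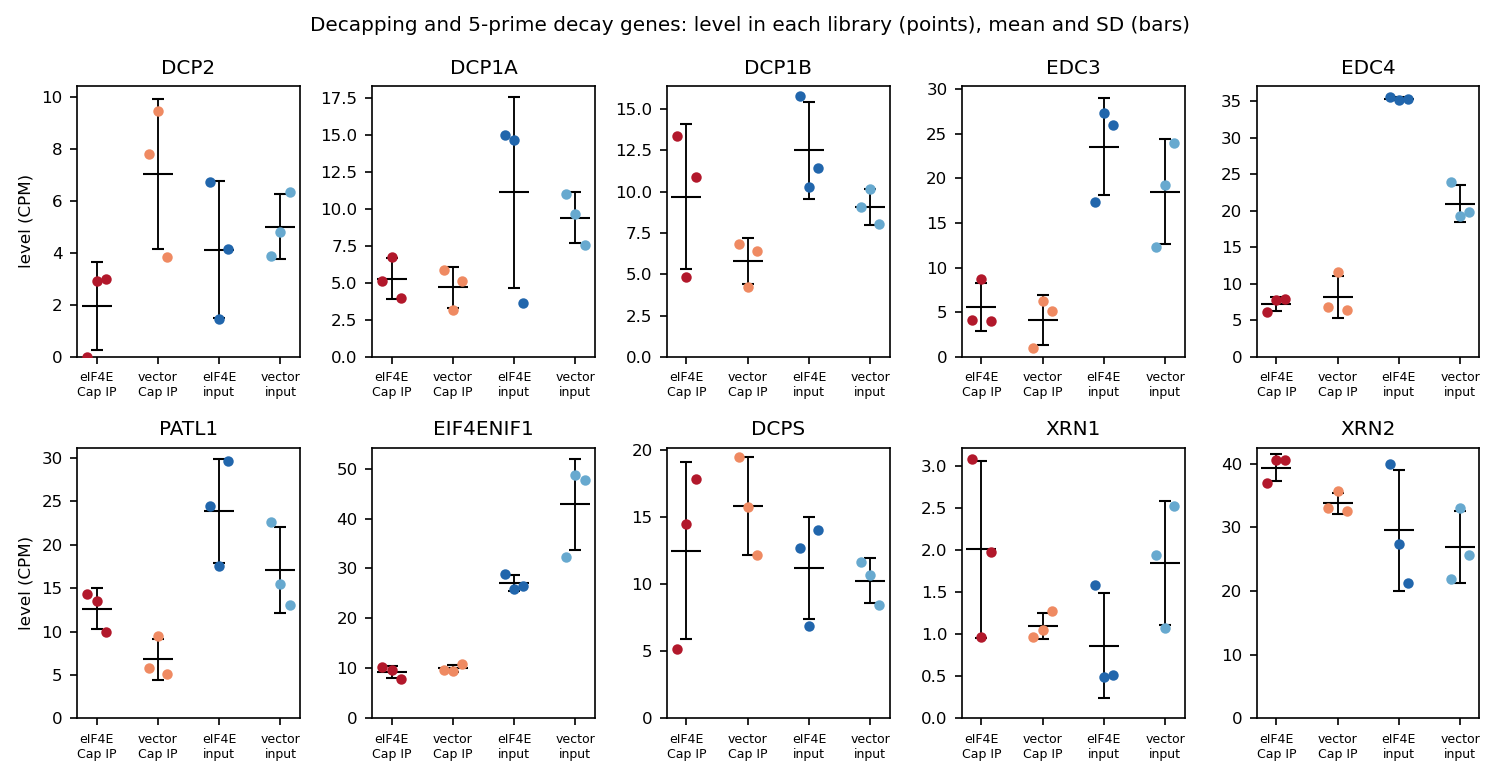
Level of each of the 10 genes in CPM (vertical axis, from 0, its own scale in each panel) in the 3 libraries of each group, with the mean and SD as bars. In both kinds of cell, EDC3, EDC4, PATL1 and EIF4ENIF1 sit lower in all Cap IP libraries than in all input libraries. XRN2 sits at 32.6 to 40.7 CPM in Cap IP and at 21.3 to 39.9 CPM in input.

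The Cap IP was compared with input in each kind of cell. In eIF4E cells 4 of the 8 tested genes fell (EDC4, EDC3, EIF4ENIF1 and PATL1) and 0 rose, where 23.3% of all tested genes were called lower and 21.9% higher. In vector cells the same 4 genes fell and 0 rose, where 21.0% of all tested genes were called lower and 18.5% higher. Cap IP libraries lay wholly below input for 4 of the 8 genes in eIF4E cells and wholly above for 0, where 29.5% and 25.4% of all tested genes did so. In vector cells they lay wholly below for 6 (with DCP1A and DCP1B) and wholly above for 1 (DCPS), where 27.2% and 22.7% did so. The median log2 fold change of the 8 genes was -1.0 in eIF4E cells and -1.15 in vector cells, and that of all tested genes -0.13 and -0.04. The summed level of the 10 genes was 98.5, 110 and 108 CPM in eIF4E Cap IP and 198, 167 and 172 CPM in eIF4E input. It was 97.2, 106 and 88.7 CPM in vector Cap IP and 151, 172 and 163 CPM in vector input.

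The 4 calls rest on TMM scaling, which sets Cap IP and input to the same level for most genes. With the counts of mitochondrially encoded mRNAs as library sizes, the median of all genes shifted by 1.03 on the log2 scale in vector cells and 0.17 in eIF4E cells, and 0 of the 8 genes were called in either. All 4 kept negative values there. This scaling takes mitochondrial mRNAs as equal in Cap IP and input, which was not tested. In eIF4E cells EDC4 was -2.09 (edgeR adjusted p = 0.0593), EDC3 -1.76, EIF4ENIF1 -1.39 and PATL1 -0.74. In vector cells EDC3 was -1.21, EIF4ENIF1 -1.18, PATL1 -0.15 and EDC4 -0.14, against 0.97 for the median of all genes under that scaling. With total counts as library sizes the median shifted by -0.83 in eIF4E cells and -0.72 in vector cells, and 6 genes were called in each, DCP1A and DCP1B being added. Of all calls, the share that were higher was 48.5% in eIF4E cells with TMM, 16.2% with total counts and 54.5% with mitochondrial mRNAs. In vector cells these shares were 46.9%, 13.5% and 84.0%.

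EDC4 is the scaffold on which DCP1 and DCP2 meet. It had 6.16, 7.73 and 7.93 CPM in eIF4E Cap IP, against 35.6, 35.2 and 35.3 CPM in eIF4E input. Its vector libraries had 6.81, 11.6 and 6.38 CPM in Cap IP, against 23.9, 19.2 and 19.8 CPM in input. In each kind of cell all Cap IP libraries lay below all input libraries, and the eIF4E input libraries were nearly equal to each other. EDC4 fell by 2.27 ± 0.35 on the log2 scale in eIF4E cells (edgeR adjusted p = 4.9e-05) and fell by 1.37 ± 0.35 in vector cells (edgeR adjusted p = 0.0045).

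EDC3 is an activator that binds DCP2 and helps P-bodies to form. It had 4.10, 8.69 and 3.97 CPM in eIF4E Cap IP, against 17.4, 27.4 and 26.0 CPM in eIF4E input. Its vector libraries had 0.972, 6.31 and 5.11 CPM in Cap IP, against 12.3, 19.2 and 24.03 CPM in input. The Cap IP and input libraries did not overlap in either kind of cell. EDC3 fell by 2.05 ± 0.48 in eIF4E cells (edgeR adjusted p = 0.0018) and by 2.14 ± 0.49 in vector cells (edgeR adjusted p = 0.0021). CLK3, which lies opposite to 701 of its exon bases, fell by 0.97 ± 0.38 in eIF4E cells (edgeR adjusted p = 0.043) and was at -0.43 ± 0.37 in vector cells without being called (edgeR adjusted p = 0.381).

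EIF4ENIF1 is the partner of eIF4E in the group. It had 10.3, 9.66 and 7.93 CPM in eIF4E Cap IP, against 28.9, 25.9 and 26.5 CPM in eIF4E input. In vector cells it had 9.72, 9.46 and 10.9 CPM in Cap IP, against 32.3, 48.6 and 47.6 CPM in input. The 6 Cap IP libraries lay close together, whereas the vector input libraries were above the eIF4E input libraries. EIF4ENIF1 fell by 1.54 ± 0.33 in eIF4E cells (edgeR adjusted p = 0.0010) and by 2.08 ± 0.32 in vector cells (edgeR adjusted p = 7.0e-05). SFI1, opposite to 58 of its exon bases, was not called in either kind of cell, at 0.54 ± 0.34 in eIF4E cells and 0.05 ± 0.34 in vector cells.

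PATL1 bridges deadenylation and decapping. It had 14.4, 13.5 and 9.92 CPM in eIF4E Cap IP, against 24.5, 17.6 and 29.6 CPM in eIF4E input. In vector cells it had 5.83, 9.46 and 5.11 CPM in Cap IP, against 22.6, 15.5 and 13.1 CPM in input. The libraries did not overlap, but the gap between the nearest Cap IP and input libraries was small in both kinds of cell. PATL1 fell by 1.34 ± 0.41 in vector cells (edgeR adjusted p = 0.013). In eIF4E cells it fell by 0.92 ± 0.37, near the threshold (edgeR adjusted p = 0.049).

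The call of PATL1 depended on single libraries. In vector cells it was lost without vector input replicate 1 (-1.09, edgeR adjusted p = 0.064) and without vector Cap IP replicate 3 (-1.15, edgeR adjusted p = 0.061). In eIF4E cells it was lost without eIF4E input replicate 1 (edgeR adjusted p = 0.091) or 3 (0.139), and without eIF4E Cap IP replicate 1 (0.073), 2 (0.088) or 3 (0.145), and it held without eIF4E input replicate 2 (0.041). DESeq2 gave an adjusted p of 0.062 and edgeR without the filter on low counts 0.059. EDC3, EDC4 and EIF4ENIF1 were called with each library left out.

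The other 4 tested genes were not called in the Cap IP. DCP1A, an activator of DCP2, had 5.13, 6.76 and 3.97 CPM in eIF4E Cap IP, against 15.02, 14.7 and 3.63 CPM in eIF4E input, where replicate 3 stood far below the others. Its log2 fold change was -1.07 ± 0.54 (edgeR adjusted p = 0.109), and -1.47 without that library (edgeR adjusted p = 0.016). In vector cells DCP1A was at -0.96 ± 0.54 (edgeR adjusted p = 0.168), with 5.83, 3.15 and 5.11 CPM in Cap IP below 11.0, 9.62 and 7.59 CPM in input. DCP1B, the related activator, was at -0.38 ± 0.42 in eIF4E cells (95% interval -1.26 to 0.50) and -0.62 ± 0.46 in vector cells (-1.57 to 0.34), the second of which turned positive, to 0.10, with mitochondrial mRNAs as library sizes.

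DCPS and XRN2 had positive values with TMM in both kinds of cell and negative ones with total counts as library sizes. XRN2, the nuclear exonuclease, had 36.9, 40.6 and 40.7 CPM in eIF4E Cap IP, against 39.9, 27.4 and 21.3 CPM in eIF4E input. Its vector libraries had 33.1, 35.7 and 32.6 CPM in Cap IP, against 22.0, 33.1 and 25.7 CPM in input. Cap IP and input overlapped in both. The log2 fold change of XRN2 was 0.41 ± 0.30 in eIF4E cells (95% interval -0.22 to 1.04) and 0.32 ± 0.31 in vector cells (-0.32 to 0.96), so a change as large as that of EDC4 lies outside both intervals. With total counts it was -0.45 in eIF4E cells and -0.41 in vector cells, where the median of all genes was -0.97 and -0.76.

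DCPS, the scavenger decapping enzyme, had 5.13, 14.5 and 17.8 CPM in eIF4E Cap IP, against 12.7, 6.84 and 14.02 CPM in eIF4E input, which overlapped widely. In vector cells it had 19.4, 15.8 and 12.1 CPM in Cap IP, against 11.6, 10.7 and 8.43 CPM in input, which did not overlap. The log2 fold change was 0.16 ± 0.44 in eIF4E cells and 0.61 ± 0.43 in vector cells (95% interval -0.28 to 1.51, edgeR adjusted p = 0.268). With total counts these were -0.64 and -0.12.

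**Figure D2:**
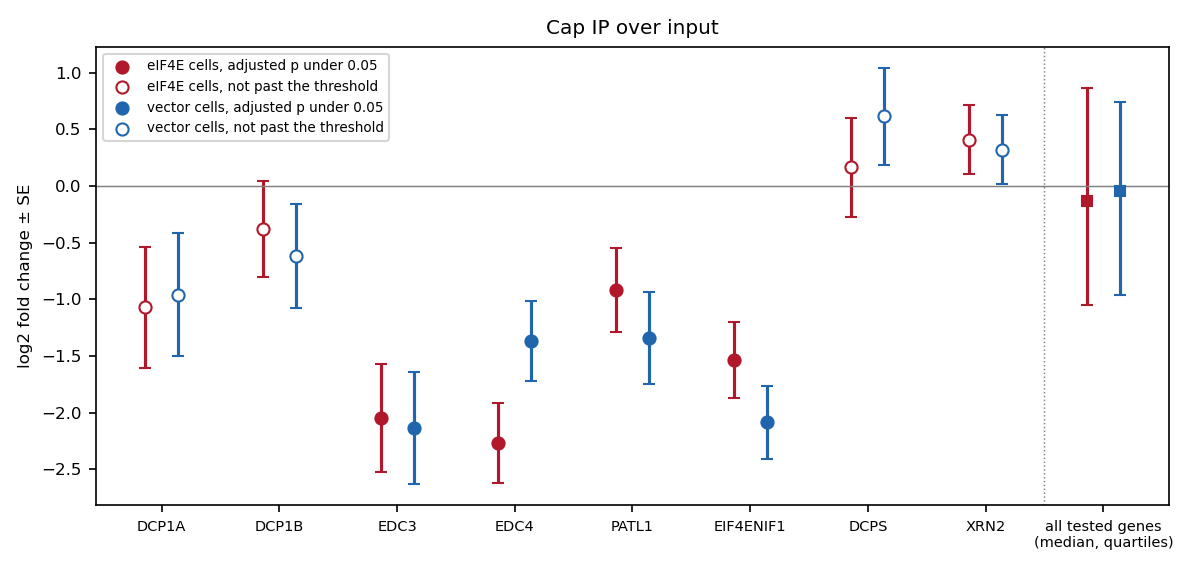
Log2 fold change of Cap IP over input (vertical axis) with its SE for the 8 tested genes in eIF4E cells (red) and vector cells (blue). Filled circles are called and open ones are not. Squares give the median of all 12460 tested genes and bars their quartiles. EDC3, EDC4, PATL1 and EIF4ENIF1 lie between -2.27 and -0.92. DCPS and XRN2 lie between 0.16 and 0.61 with the TMM scaling drawn here, and below 0 with total counts as library sizes.

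Input and Cap IP libraries whose titles share a stem were also set against each other 1 by 1. The log2 ratio of Cap IP to input, with 2 CPM added to each, was below 0 for EDC3, EDC4, PATL1, EIF4ENIF1 and DCP1B in 6 of 6 such pairs, and for DCP1A in 5 of 6. For DCPS and XRN2 it was below 0 in 1 of 6. How many of all tested genes were below 0 in 6 of 6 pairs was not counted, and these ratios rest on the TMM scaling. It spanned -2.20 to -1.91 for EDC4 in eIF4E cells and -1.56 to -0.65 in vector cells. For EIF4ENIF1 it spanned -1.52 to -1.26 in eIF4E cells and -2.14 to -1.55 in vector cells. The eIF4E and vector pairs did not overlap for 2 of the 8 tested genes, EDC4 and EIF4ENIF1, where 16.7% of all tested genes had no overlap. EDC4 was lower and EIF4ENIF1 higher in eIF4E cells, the nearest values of EIF4ENIF1 being -1.52 and -1.55. The direct test of this difference, given next, called neither gene.

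The difference between the kinds of cell in the Cap IP over input ratio was tested directly as an interaction. Of the 8 genes 0 were called by edgeR, 0 had an unadjusted p under 0.05 and DESeq2 called 0. Of all 12460 genes edgeR called 0 (0.00%), with 728 at an unadjusted p under 0.05, and DESeq2 called 0. EDC4 had a difference of -0.90 ± 0.51 (95% interval -1.96 to 0.16, edgeR adjusted p = 0.835). For EIF4ENIF1 it was 0.55 ± 0.47 (-0.44 to 1.53, edgeR adjusted p = 0.887). The median difference of the 8 genes was 0.09 and that of all tested genes 0.02. The intervals reach differences of more than 2-fold for 7 of the 8 genes, the exception being XRN2 (0.09 ± 0.43, interval -0.81 to 0.98).

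In input, eIF4E cells were compared with vector cells. Of the 8 genes 0 were called by edgeR, 2 had an unadjusted p under 0.05 and DESeq2 called 0. Of all tested genes 0.530% were called. The median log2 fold change was 0.30 for the 8 genes and -0.05 for all tested genes, and 7 of the 8 values were positive. Between lines of cells, fewer cells that express a gene and less of its RNA per cell cannot be told apart in bulk RNA. EDC4 had 35.6, 35.2 and 35.3 CPM in eIF4E input and 23.9, 19.2 and 19.8 CPM in vector input. The libraries did not overlap, and the log2 fold change was 0.75 ± 0.30 (edgeR adjusted p = 0.267, unadjusted 0.019). EIF4ENIF1 had 28.9, 25.9 and 26.5 CPM in eIF4E input and 32.3, 48.6 and 47.6 CPM in vector input. It was the only gene of the 8 with a negative value, at -0.66 ± 0.28 (edgeR adjusted p = 0.303, unadjusted 0.028), and its libraries did not overlap either. DCP1B was the third gene without overlap, with 15.8, 10.3 and 11.4 CPM in eIF4E input and 9.05, 10.2 and 8.01 CPM in vector input (0.47 ± 0.40, edgeR adjusted p = 0.627). Of all tested genes 18.7% had groups that did not overlap. The eIF4E input libraries enter both this comparison and that of Cap IP with input, so the values of EDC4 and EIF4ENIF1 in them are not independent.

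In the Cap IP fraction, eIF4E cells were again compared with vector cells. Of the 8 genes 0 were called by edgeR, 1 had an unadjusted p under 0.05 and DESeq2 called 0. Of all tested genes 28 (0.225%) were called, and 155 with the tag shared by the titles of eIF4E and vector libraries as a replicate block, under which 0 of the 8 genes were called. PATL1 had 14.4, 13.5 and 9.92 CPM in eIF4E Cap IP and 5.83, 9.46 and 5.11 CPM in vector Cap IP, without overlap. Its log2 fold change was 0.92 ± 0.44 (95% interval 0.01 to 1.83, edgeR adjusted p = 0.538, unadjusted 0.048). XRN2 was the other tested gene without overlap (0.22 ± 0.31, edgeR adjusted p = 0.868), and 13.6% of all tested genes had none. EDC4 was at -0.15 ± 0.41 and EIF4ENIF1 at -0.12 ± 0.38, with overlapping libraries.

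**Figure D3:**
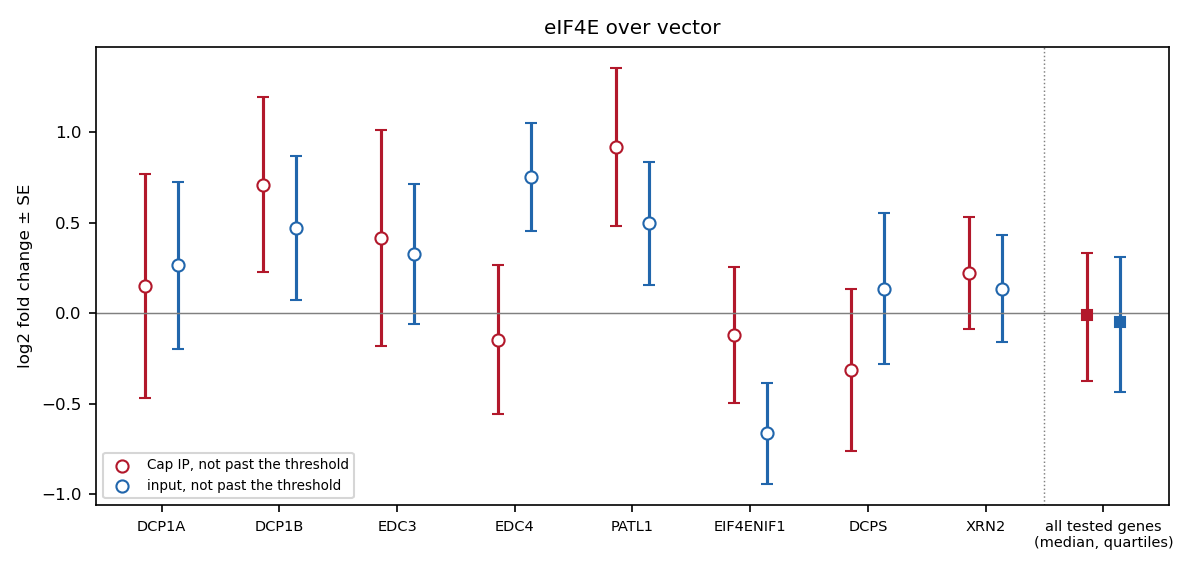
Log2 fold change of eIF4E over vector (vertical axis) with its SE for the 8 tested genes in Cap IP (red) and input (blue). All circles are open because no gene was called. Squares give the median of all tested genes and bars their quartiles. EDC4 and EIF4ENIF1 stand furthest from 0 in input, at 0.75 and -0.66, and PATL1 in Cap IP, at 0.92.

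Transcript length and GC content moved with these fold changes across genes. Over 8814 tested protein-coding genes, Spearman's rho of the log2 fold change with the GC content of the canonical transcript was -0.37 for Cap IP over input in eIF4E cells, -0.19 in vector cells, -0.36 for their difference and 0.31 for eIF4E over vector input. With length it was -0.28 in eIF4E cells and -0.40 in vector cells. These are descriptions across genes that share the same libraries. EDC4 has 59.8% GC, in the highest of 5 equal bins, where the median of all genes was -0.72 for Cap IP over input in eIF4E cells, -0.31 in vector cells, -0.38 for the difference and 0.25 for eIF4E over vector input. The values of EDC4 were further from 0 than each of these medians, at -2.27, -1.37, -0.90 and 0.75. EDC3 (54.0%) and EIF4ENIF1 (51.0%) fall in the middle bin, with a median of -0.63 in eIF4E cells and -0.42 in vector cells. PATL1 (46.6%), DCP1A (43.8%) and XRN2 (42.8%) fall in the next lower bin, with medians of -0.18 and -0.16. By length, EDC4, PATL1 and DCP1A fall in the bin next to the longest. Its median was -0.60 in eIF4E cells and -0.58 in vector cells, and its lower quartile -1.46 and -1.23. EDC3 and EIF4ENIF1 fall in the middle bin of length, with medians of -0.47 and -0.27 and lower quartiles of -1.18 and -0.85. The part of GC content and length in the results of these genes was not tested.

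**Figure D4:**
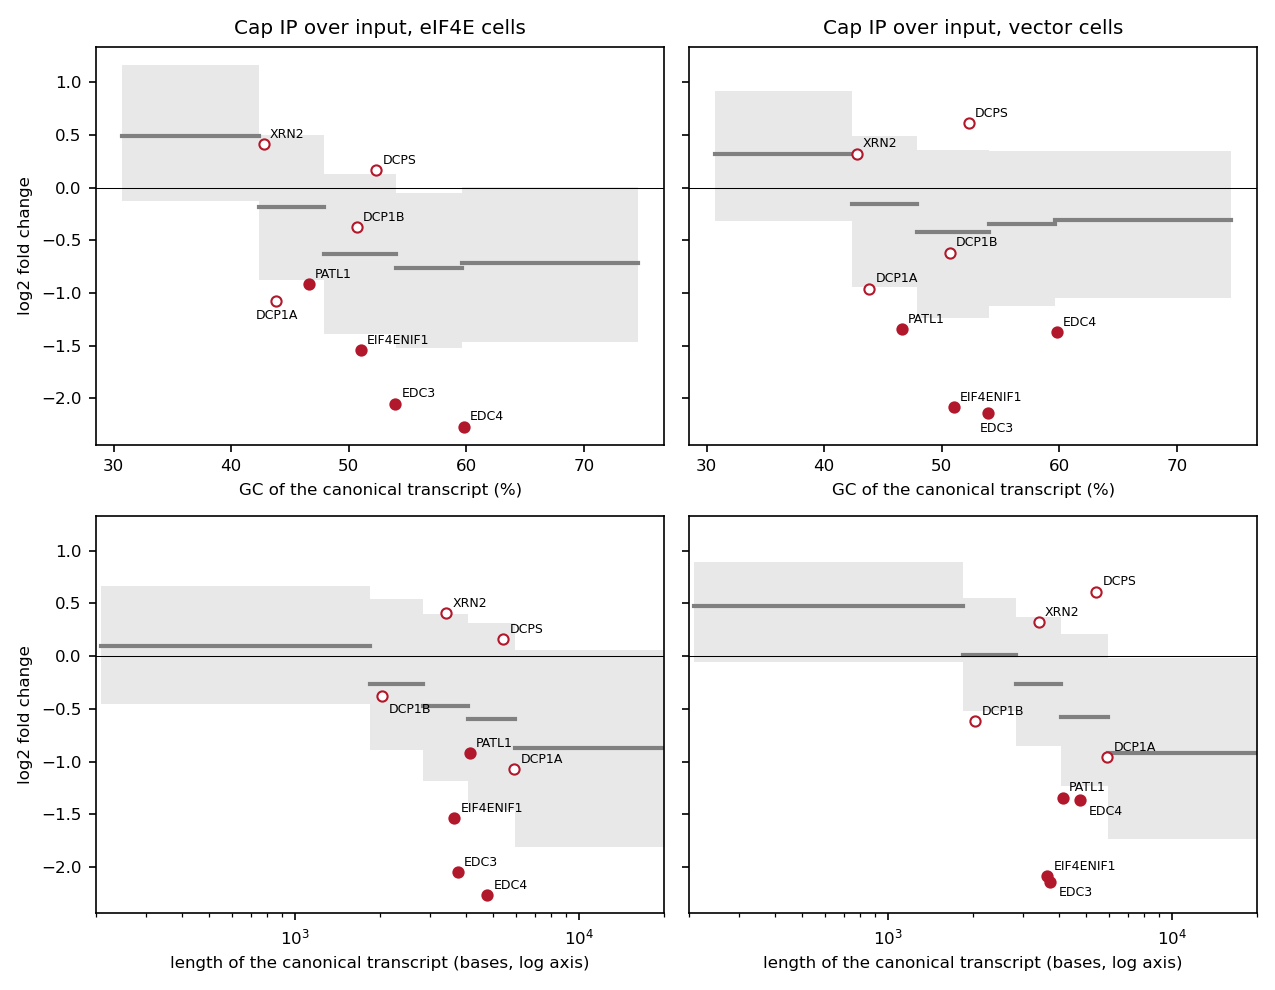
Log2 fold change of Cap IP over input (vertical axis) in eIF4E cells (left) and vector cells (right) against GC content (top) and length on a log axis (bottom) of the canonical transcript. Grey lines and bands give the median and quartiles of protein-coding genes in each of 5 bins of GC or length, the last bin of length being drawn to 20 kb, and circles the 8 genes, filled where called. EDC3, EDC4, EIF4ENIF1, PATL1 and DCP1A lie below the lower quartile of their own bin of GC in both kinds of cell. PATL1 in eIF4E cells and DCP1A in vector cells do so narrowly. For length, EDC3, EDC4 and EIF4ENIF1 lie below the lower quartile of their own bin in both kinds of cell. PATL1 does so in vector cells only, and DCP1A lies within the quartiles of its length bin in both.

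The wider machinery of mRNA decay was followed in 6 lists with 89 genes in the table, of which 78 were tested. Between eIF4E and vector cells 0 of the 78 were called in input, in Cap IP or for the difference, with 4, 3 and 2 at an unadjusted p under 0.05 and 0 called by DESeq2. In Cap IP against input, 9 rose and 15 fell in eIF4E cells, and 10 rose and 14 fell in vector cells. These are smaller shares than among all tested genes, of which 21.9% rose and 23.3% fell in eIF4E cells and 18.5% rose and 21.0% fell in vector cells. The list counts moved with the scaling, to 5 higher and 33 lower in eIF4E cells and 1 higher and 31 lower in vector cells with total counts, and to 3 higher and 1 lower in eIF4E cells and 13 higher and 0 lower in vector cells with mitochondrial mRNAs. The genes named from the lists as called kept the direction given here under both. Among 12 tested partners of decapping and P-body proteins, LSM3, part of the ring that binds mRNA ends before decapping, rose by 1.30 ± 0.27 in eIF4E cells (edgeR adjusted p = 0.00074) and by 1.60 ± 0.28 in vector cells (edgeR adjusted p = 0.00018). LSM7 of the same ring rose in vector cells (1.32 ± 0.37, edgeR adjusted p = 0.0075). LSM14B and UBAP2L, RNA-binding proteins of cytoplasmic granules, fell in eIF4E cells, by 1.07 ± 0.29 and 0.81 ± 0.28. Among 6 other cap-removing or related enzymes, DXO, which removes incomplete caps, fell in vector cells (-1.07 ± 0.40, edgeR adjusted p = 0.038).

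Nonsense-mediated decay, which removes mRNAs with early stop codons, had 14 tested genes, of which 6 fell and 2 rose in eIF4E cells and 5 fell and 1 rose in vector cells. Of all tested genes 23.3% fell and 21.9% rose in eIF4E cells, and 21.0% fell and 18.5% rose in vector cells. The median log2 fold change of the 14 genes was -0.73 in eIF4E cells and -0.68 in vector cells. UPF1, the helicase at its centre, fell by 2.57 ± 0.32 in eIF4E cells (edgeR adjusted p = 7.4e-06) and by 1.91 ± 0.32 in vector cells (edgeR adjusted p = 0.00014). SMG5 and SMG6, which lead UPF1-bound mRNAs to decay, fell in both kinds of cell. The log2 fold change of SMG5 was -2.06 ± 0.33 in eIF4E cells and -1.89 ± 0.34 in vector cells, and that of SMG6 was -1.69 ± 0.35 in eIF4E cells and -1.37 ± 0.35 in vector cells. Of 12 tested genes of microRNA silencing and AU-rich element decay, 6 fell and 0 rose in eIF4E cells, and 5 fell and 1 rose in vector cells, beside the same shares of all tested genes. Their median was -1.08 in eIF4E cells and -1.02 in vector cells. AGO2, which holds the microRNA, fell by 1.48 ± 0.25 in eIF4E cells and by 1.85 ± 0.26 in vector cells. AGO1 and TNRC6C fell in both kinds of cell as well.

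Of 18 tested deadenylation genes, 2 rose and 0 fell in eIF4E cells, and 3 rose and 2 fell in vector cells. All of these shares lie below those of all tested genes just given. PAN3, a subunit of a deadenylase, rose by 2.00 ± 0.38 in eIF4E cells and 1.32 ± 0.39 in vector cells, and CNOT1, the scaffold of the CCR4-NOT complex, fell in vector cells (-1.43 ± 0.40, edgeR adjusted p = 0.0074). Of 16 tested exosome genes, 3 rose and 1 fell in eIF4E cells, and 2 rose and 1 fell in vector cells, again smaller shares than among all tested genes. DIS3, a ribonuclease of the exosome, rose by 2.48 ± 0.40 in eIF4E cells and 1.63 ± 0.39 in vector cells. SKIV2L2, the nuclear exosome helicase, rose in both (1.84 ± 0.29 and 1.41 ± 0.28), and SKIV2L, its cytoplasmic relative, fell in both (-1.35 ± 0.36 and -1.18 ± 0.35).

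Profiles over the 12 libraries were compared for the 3 tested genes of highest level, by the root mean square difference of log2 CPM after each gene was centred on its own mean. The nearest to XRN2 were NASP (0.191), HNRNPM (0.199) and SERBP1 (0.208), where the median over 6380 genes was 0.661. The nearest to EIF4ENIF1 were RP11-265D17.2 (0.252), MCM3AP-AS1 (0.254) and PINK1 (0.275), with a median of 1.06 over 6380 genes. The nearest to EDC4 were CCNF (0.264), PVRL1 (0.279) and KIF1C (0.284), with a median of 1.07 over 6381 genes. Within the group, XRN2 lay nearest to DCPS (0.515) and EDC4 to PATL1 (0.533), and DCPS and EDC3 were the furthest apart (1.38).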

How the data were processed

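RNA from U2OS cells was sequenced as 75-cycle single-end reads from a stranded, ribosomal RNA depleted library kit, per the labels. The deposited values are counts per gene name with no normalization. STAR 2.5.1b, featureCounts 1.4.5-p1, DESeq2 and GRCh38.p5 are named in the submitters' processing notes. Neither the strand setting nor the gene annotation is given in the sources used here.

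In edgeR 4.0.16 (R 4.3.3, limma 3.58.1) filterByExpr left 12460 genes. TMM factors scaled the libraries, and a quasi-likelihood model with a mean per group was fitted over all 12. The 5 comparisons were eIF4E over vector in input and in Cap IP, Cap IP over input in each kind of cell, and the difference of these. Alternatives were DESeq2 1.42.0 as the test, other size factors, other filters, fewer libraries, blocks and each library left out. The block fitted to the compared groups alone was added after seeing the data. The procedure was tested on simulated data, where it found few of the 2-fold changes. For eIF4E over vector it called 10% of these in input (74% of 4-fold changes) and 4% in Cap IP (53%). For Cap IP over input it called 11% with the vector libraries (70%) and 7% with the eIF4E libraries (65%). Genes without a call may thus still differ by 2-fold. Intervals cover 95%.

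The members and gene lists were chosen with earlier results of these data known. Named were all 10 members, opposite-strand genes over their exons, EIF4E, RNA polymerase III transcripts, up to 4 genes of smallest p per list and comparison, and the nearest profiles among genes with mean log2 CPM of at least 4. A few list genes chosen this way are not reported here. Genes, exons and transcripts came from GENCODE release 44, and promoters from RefSeq GRCh38.p14. Tables used pandas 2.3.3 and NumPy 2.4.6 in Python 3.11.15, intervals SciPy 1.17.1, and figures matplotlib 3.10.9. Replicates differed by more than sampling noise.

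An input and a Cap IP library share a stem in their titles, and an eIF4E and a vector library a tag. Residuals from the group means of libraries with the same stem correlated at 0.43, 0.27 and 0.44 in vector cells and at 0.35, 0.08 and 0.11 in eIF4E cells. Those with the same tag correlated at 0.20, 0.16 and 0.30 in Cap IP and at 0.18, 0.01 and -0.04 in input. Libraries with unlike stems or tags were not correlated as a baseline, so this check does not decide whether libraries are paired.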

Additional observations from a re-analysis of the deposited data

How the results depend on the processing

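With mitochondrial mRNAs as library sizes, 0 of the 8 genes were called for Cap IP over input in either kind of cell, against 4 in each with TMM. Under that scaling DCP1B turned to 0.10 for Cap IP over input in vector cells. For the difference between eIF4E and vector cells, DCP1B turned to -0.51, EDC3 to -0.55, XRN2 to -0.90, PATL1 to -0.59 and EIF4ENIF1 to -0.21. For eIF4E over vector in Cap IP, DCP1A turned to -0.045 and XRN2 to -0.47. With total counts DCPS turned to -0.64 and XRN2 to -0.45 for Cap IP over input in eIF4E cells, and to -0.12 and -0.41 in vector cells. EDC3 (-0.024) and XRN2 (-0.043) turned for the difference, as they did without a filter on low counts (-0.038 and -0.027). None of the values that turned was called, and the cause was not tested.

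With 1 library left out, the following values ranged across 0. For eIF4E over vector input these were DCP1A (-0.0079 to 0.68), XRN2 (-0.14 to 0.33) and DCPS (-0.039 to 0.39). For Cap IP over input in eIF4E cells it was DCPS (-0.20 to 0.53). For the difference these were DCP1A (-0.52 to 0.16), DCP1B (-0.068 to 0.54), EDC3 (-0.41 to 0.37) and XRN2 (-0.10 to 0.36). For eIF4E over vector in Cap IP these were DCP1A (-0.050 to 0.33), DCPS (-0.64 to 0.084), EDC3 (-0.039 to 0.75) and EDC4 (-0.29 to 0.17). The number of the 8 genes called stayed at 3 or 4 for Cap IP over input and at 0 elsewhere.

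The replicate block changed no call of the 8 genes (0 in input, 4 in each kind of cell for Cap IP over input, 0 for the difference and 0 in Cap IP), alone or in the fit of the compared groups only. The number of all genes called in input was 66 in edgeR and 462 with the block, 152 by DESeq2, 11 with total counts, 7 with mitochondrial mRNAs, 318 without a filter, 32 with at least 50 counts in 3 libraries and 18 with only the compared groups. With 1 library left out it lay between 7, without eIF4E input replicate 2, and 109, without eIF4E input replicate 1. In Cap IP it was 28 in edgeR and 71 by DESeq2, 204 without a filter, 6 with only the compared groups, and 0 without eIF4E Cap IP replicate 2. For the difference the block called 51 of all genes. Depth limits XRN1 and DCP2 most, and Cap IP values of the tested genes that rest on 1 to 51 counts.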
